A study of Canis lupus familiaris with 2 samples.

Results

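The 10 genes described here, SOX2, SOX8, SOX9, LHX2, HES1, ID1, ID3, ID4, NFIA and NFIX, encode transcription factors or partners of transcription factors that are known from retinal glia. They were chosen by name, and their levels were measured in cell classes gated from marker genes, with the main comparison between Müller glia and astrocyte-like glia. All 10 were among the 34981 gene names listed for the first dog, N350, and 7 were among the 19930 listed for the second, N354. SOX2, SOX9 and HES1 had no row under those names in N354, so they were not analysed in that dog and no value of theirs has a replicate. The samples were single cells of neuroretina, taken as punches and dissociated with trypsin and a neural tissue kit, from 2 normal (wild-type) male dogs aged 40 weeks. N350 gave 8900 cells with 24030707 UMIs (unique molecular identifiers, each a counted RNA molecule) at a median of 1298 in a cell. N354 gave 4392 cells with 9711202 UMIs at a median of 1205. The gene lists of the dogs came from different annotations, and only 15224 names were shared, so dog and annotation cannot be told apart. For this reason levels were compared between classes within a dog and not between dogs. The counts listed 6 cell barcodes in both dogs.

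Müller glia are the radial glia of the retina. They span it from the vitreous to the photoreceptors, recycle glutamate and retinoids, and arise from the same progenitors as the retinal neurons, whereas astrocytes enter from the optic nerve and lie in the nerve fibre layer. SOX2, SOX8 and SOX9 are HMG-box factors, of which SOX2 keeps neural progenitors and glia in their state and SOX9 acts early in glial fate. LHX2 is a LIM-homeodomain factor needed in eye development and in Müller glia. HES1 is a repressor switched on by Notch signalling. The ID proteins carry a helix-loop-helix domain without a DNA-binding region, hold E proteins away from DNA and are induced by BMP signalling, while NFIA and NFIX are nuclear factor I proteins that act in gliogenesis and late retinal development.

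A cell was placed in a class when it held at least 4 UMIs from at least 2 markers of that class, at 3 times or more the mean level of those markers over all cells of its dog (0.75 times for rods). None of the 10 genes was a marker. The gate gave 1054 Müller glia in N350 and 562 in N354, and 161 and 65 astrocyte-like glia. Rods numbered 5012 and 2891. The 5 Müller markers together (RLBP1, GLUL, DKK3, SLC1A3 and FRZB) stood at 121 and 167 UMIs per 10000 in Müller glia. In astrocyte-like glia they stood at 13.0 and 22.3. GLUL alone made up 94.6 and 127 of the Müller glia values. FRZB, alone of the 5, was lower in Müller glia than in astrocyte-like glia in both dogs, at 2.07 against 3.93 in N350. The 5 astrocyte markers (GFAP, ANXA1, SERPINE2, WFDC2 and FGG) stood at 0.482 and 0.156 in Müller glia and 70.1 and 74.3 in astrocyte-like glia. WFDC2 alone made up 48.0 and 52.7 of the last 2 values, while GFAP stood at 3.69 and 6.86. Among genes that the gate did not use, the astrocyte gap junction gene GJA1 had 128 and 37 UMIs in astrocyte-like glia, against 2 and 0 in Müller glia. AQP4, a water channel of both kinds of glia, was found in each. S100B was higher in astrocyte-like glia of N350, at 0.459 UMIs per 10000 against 0.151 in Müller glia, from 39 and 110 UMIs. In N354 it had 0 and 1 UMI, which gave no order. APOE was lower in astrocyte-like glia, at 3.60 and 5.51 UMIs per 10000 against 21.4 and 17.9, and VIM was lower too. CLU and KCNJ10 were higher there in both dogs, KCNJ10 from 254 and 9 UMIs. CLU stood at 68.7 and 55.4 against 49.6 and 38.5. On this scale the median gene was also higher in astrocyte-like glia, 1.41 and 1.53 times, so CLU did not stand out. Müller glia were not sharply separated from the ungated cells in N350, where 158 of 1054 lay within 25% above the limit, against 36 of 562 in N354 and no astrocyte-like cell in either dog. Rod markers, which stood at 455 in the rods of N350, stood at 19.9 in its Müller glia and 18.5 in its astrocyte-like glia. Whether these UMIs came from free RNA or from doublets was not tested.

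**Figure D1:**
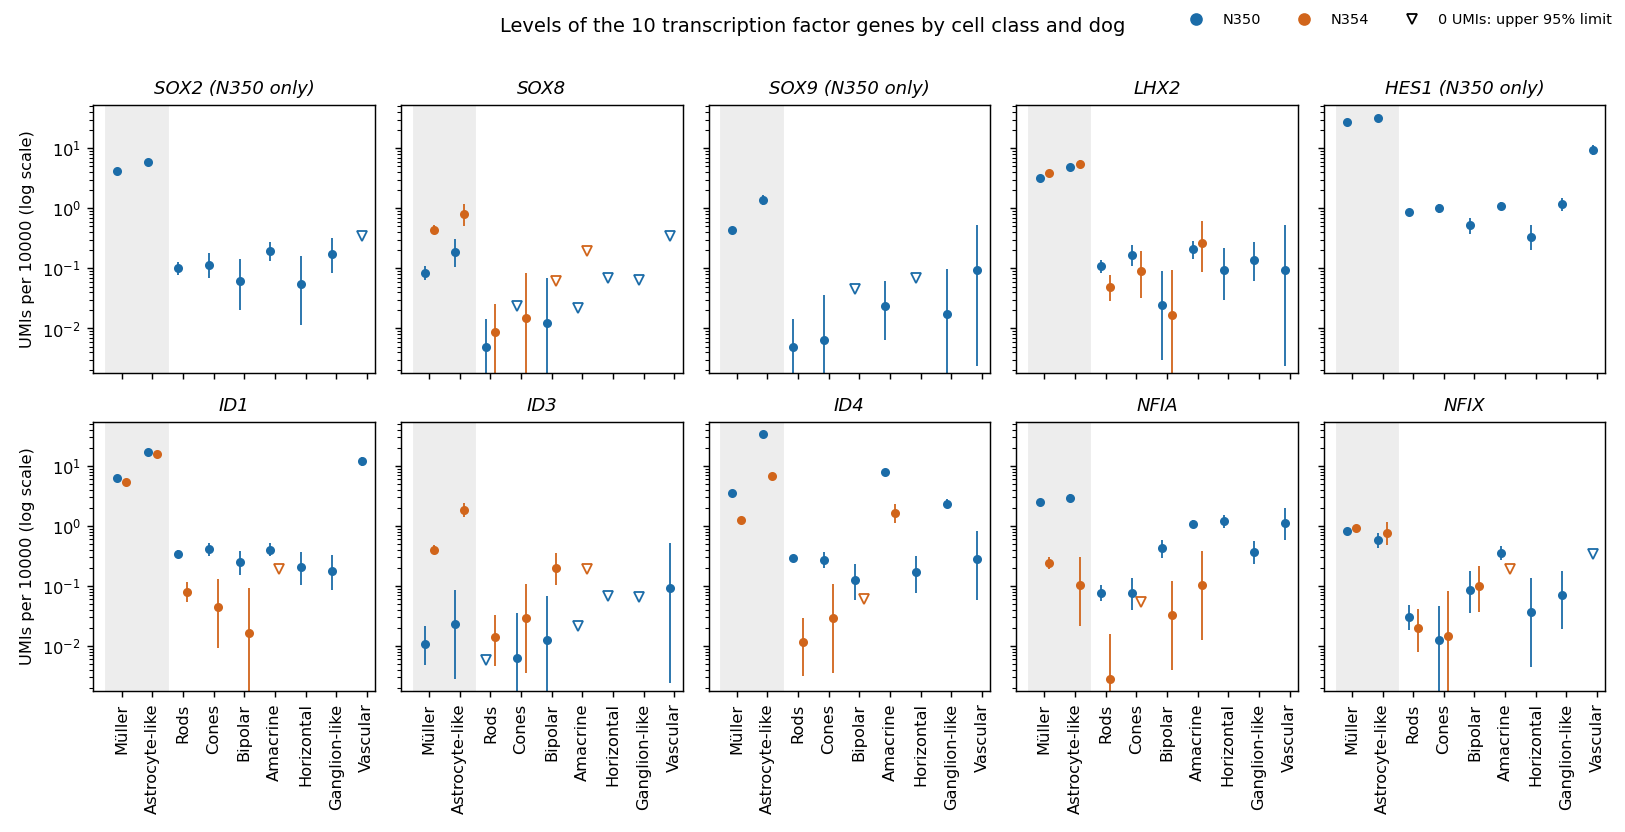
Level of each gene, in UMIs per 10000 on a log scale, in each cell class with at least 20 cells. Blue points are N350 and orange points N354, bars are 95% counting intervals (some run below the axis), open triangles are the upper limit where no UMI was counted, and the grey band marks both kinds of glia. Most genes sit well above the neurons in the band, while ID4 is also high in amacrine cells, and HES1 and ID1 in vascular cells.

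The members were concentrated in both kinds of glia. Müller and astrocyte-like glia together held 41.5% of the UMIs of the classes plotted for N350 and 42.7% of those for N354. They held 97.8% of the SOX9 UMIs, 96.4% of the SOX2 UMIs and 95.4% of the HES1 UMIs of N350. For LHX2 the share was 94.96% in N350 and 98.1% in N354. SOX8 had 95.1% and 97.8% of its UMIs there, and ID1 92.2% and 98.6%. The lowest shares in N350 were those of ID4 at 75.8% and of ID3 at 76.9%, the latter of only 13 UMIs. In N354 no member was under 91.0%.

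Levels were compared between classes and not between genes, since counts from the 3' end also depend on how well each annotation covers that end. SOX2 stood at 4.16 UMIs per 10000 in the Müller glia of N350 (95% interval 4.01 to 4.31, for counting error only, as for all intervals here) and at 5.92 (5.41 to 6.46) in its astrocyte-like glia. It was at or below 0.196 in every neuron class. A SOX2 UMI was found in 68.7% of Müller glia and 82.0% of astrocyte-like glia at medians of 6446 and 5496 UMIs per cell, and in 1.20% of rods at a median of 1080. With each cell thinned to 1000 UMIs, which left out 117 Müller glia, 13 astrocyte-like glia and 2132 rods of N350 with fewer, the shares were 30.1%, 41.8% and 0.980%. SOX9 stood at 0.439 (0.392 to 0.490) in Müller glia and 1.40 (1.16 to 1.67) in astrocyte-like glia, and its 3 UMIs over 5012 rods gave 0.00484. SOX8 stood at 0.0839 in Müller glia and 0.188 in astrocyte-like glia of N350, from 61 and 16 UMIs. In N354 SOX8 stood at 0.444 and 0.797, from 151 and 23 UMIs. The order of both kinds of glia was the same in both dogs for SOX8, and no neuron class of either dog held more than 3 of its UMIs.

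LHX2 stood at 3.17 (3.04 to 3.30) in the Müller glia of N350 and 3.87 (3.66 to 4.08) in those of N354, and 4.85 (4.39 to 5.34) and 5.58 (4.75 to 6.51) in the astrocyte-like glia. The highest neuron class was the amacrine cells in both dogs, at 0.208 and 0.265. HES1 stood at 27.9 (27.5 to 28.3) UMIs per 10000 in the Müller glia of N350 and at 31.9 (30.7 to 33.1) in astrocyte-like glia. The vascular cells, 27 endothelial cells and pericytes, followed at 9.41 (7.65 to 11.4), and every neuron class was at or below 1.18.

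Among the ID genes, ID1 stood at 6.37 (6.19 to 6.56) in the Müller glia of N350 and 5.48 (5.23 to 5.74) in those of N354. In astrocyte-like glia it was at 17.2 (16.3 to 18.1) and 15.6 (14.2 to 17.1), above Müller glia in both dogs. Vascular cells of N350 lay between them at 11.9 (9.96 to 14.2), which was 1.88 times the Müller level (1.56 to 2.24), and N354 had 3 such cells, too few to give a level. ID4 was the member with the widest gap between the glia. It stood at 3.51 (3.37 to 3.65) in Müller glia and 33.4 (32.1 to 34.6) in astrocyte-like glia of N350, and at 1.24 (1.13 to 1.37) and 6.72 (5.81 to 7.74) in N354. An ID4 UMI was found in 153 of 161 and 57 of 65 astrocyte-like glia, in 58.6% and 41.6% of Müller glia and in 3.15% and 0.138% of rods. Thinned to 1000 UMIs per cell, the shares were 86.9% and 48.8%, 23.3% and 11.5%, and 2.39% and 0.111%. In N354 the median UMIs per cell were 4132, 5655 and 1021 for these classes, and 1, 69 and 1389 cells were left out by the thinning. ID3 was scarce in N350, where Müller glia held 8 UMIs and astrocyte-like glia 2, and gave no usable order there. In N354 it stood at 0.403 (0.339 to 0.477) in Müller glia and 1.87 (1.41 to 2.44) in astrocyte-like glia.

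NFIX had the opposite order. It stood at 0.828 (0.764 to 0.897) in Müller glia and 0.588 (0.436 to 0.775) in astrocyte-like glia of N350, and at 0.915 (0.816 to 1.02) and 0.762 (0.478 to 1.15) in N354, where the intervals overlap. NFIA stood at 2.55 (2.43 to 2.67) and 2.96 (2.61 to 3.35) in N350. In N354 it had 83 UMIs in Müller glia and 3 in astrocyte-like glia, with levels of 0.244 (0.195 to 0.303) and 0.104 (0.0214 to 0.304).

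To test whether both kinds of glia stood above the neurons, UMIs were summed per class and dog over the 6 classes with at least 20 cells in both dogs. The test was edgeR's quasi-likelihood test with dog as a block. It could include the 7 members named in both dogs, and all 7 passed the low-count filter. With 2 dogs, each gene had 5 residual degrees of freedom, shared by the classes. The test also drew each gene's spread toward the trend over all genes, so each p-value rests partly on other genes. All 7 were higher in Müller glia than in the mean of the rods, cones, bipolar and amacrine cells, and 30.4% of all 11943 genes tested were called higher in this comparison. With library size alone in place of TMM scaling, the calls over all genes turned from 3635 higher and 2273 lower to 2403 and 5184, and all 7 members remained called higher. All 7 were also higher in astrocyte-like glia, where 23.5% of all genes were called higher. LHX2 had a log2 fold change of 6.01 ± 0.19 (SE; adjusted p = 2.3e-15) for Müller glia and 5.90 ± 0.20 (adjusted p = 4.0e-15) for astrocyte-like glia. The smallest values were those of ID4 for Müller glia, 4.05 ± 0.26 (adjusted p = 2.5e-11), and of NFIX for astrocyte-like glia, 3.53 ± 0.38 (adjusted p = 1.5e-07). The neurons enter as a mean of log levels, so a single neuron class can stand above the glia in a gene called higher. SOX8 and ID3 had no UMI in the amacrine cells of either dog, and their fitted values of 6.20 and 4.33 for Müller glia therefore depend on the prior count. Without the block, ID3 (adjusted p = 0.098) and NFIA (0.058) were no longer called for Müller glia, nor NFIA (0.087) for astrocyte-like glia.

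The levels of some members in neurons were close to what the Müller markers showed there. In the rods of N350 the 5 Müller markers stood at 3.26% of their level in Müller glia. SOX2 stood at 2.44%, HES1 at 3.07%, NFIA at 3.04%, LHX2 at 3.41% and NFIX at 3.70% of theirs, while ID1 was at 5.37% and ID4 at 8.23%. ID1 and ID4 were highest in astrocyte-like glia, so the Müller level is a low reference for them. The 5 astrocyte markers stood at 0.493 UMIs per 10000 in these rods, against 70.1 in astrocyte-like glia. ID4 stood at 0.289 against 33.4, and ID1 at 0.342 against 17.2. In the rods of N354 the Müller markers were at 1.56%, and ID1 at 1.47% and ID4 at 0.924% lay below them. The gate had removed rods with many Müller UMIs, so the marker share is a selected value. The part of free RNA or doublets in these shares was not tested. In the amacrine cells of N350 the Müller markers were at 6.24%, and SOX2, SOX9, LHX2, HES1 and ID1 lay between 3.96% and 6.57%. There ID4 was at 227%, NFIX at 43.0% and NFIA at 42.0%. In the 26 amacrine cells of N354 the markers were at 11.6%, ID4 at 132% and NFIA at 43.4%, the last from 2 UMIs. No NFIX UMI was found in them, which allows at most 0.215 times the Müller level. A list of 7 glial genes not used by the gate, among them CLU, VIM and APOE, gave another share there. It stood at 1.54 UMIs per 10000 against 359 in Müller glia, where the 5 markers stood at 19.3 against 167. In N350 the 7 genes stood at 11.1 against 257, and the 5 markers at 7.53 against 121. The marker share of amacrine cells is therefore no general measure of Müller RNA in them. In N350, NFIA also stood apart in horizontal cells, with 46.9% against 1.22% for the markers, and in bipolar cells, with 16.6% against 1.97%. The summed NFIA level of those horizontal cells was 1.19 UMIs per 10000, against 2.55 in Müller glia. As a mean over cells the values were 0.745 and 2.19. N354 had 11 horizontal cells, too few to give a level. In N354 NFIA was at 13.7% in bipolar cells against 1.11% for the markers, from 2 UMIs. ID3 was at 49.7% of its Müller level in those bipolar cells, from 12 UMIs in 12 of 248 cells.

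ID4 was high in amacrine cells. These cells, inhibitory interneurons of the inner retina, stood at 7.98 (7.56 to 8.42) UMIs per 10000 in N350, 2.27 times the Müller level (2.13 to 2.43). In N354 they stood at 1.64 (1.11 to 2.33), 1.32 times (0.887 to 1.90), so that order was not resolved there. Astrocyte-like glia were 4.18 times (3.92 to 4.46) and 4.09 times (2.79 to 6.19) above the amacrine cells. The ganglion-like cells of N350, of which there were 21, had 2.35 (1.97 to 2.79). A UMI was found in 9 of them, and the mean over cells was 1.38. The 5 astrocyte markers stood at 3.92 in these ganglion-like cells, against 70.1 in astrocyte-like glia, where ID4 stood at 33.4. In amacrine cells these markers stood at 4.82 and 3.87, against 70.1 and 74.3 in astrocyte-like glia of the same dogs. Of the 5 markers, 2 had no UMI in the amacrine cells of N350 and 3 had none in those of N354. In the ganglion-like cells 2 had none. These sums thus come from the remaining markers, and how far they measure astrocyte RNA was not tested. The part of free RNA or doublets in these levels was not tested. ID4 was uneven over the amacrine cells. The 25 cells of N350 with the most ID4 held 74.8% of its amacrine UMIs, and a UMI was found in 37.8% of 246 cells, or 24.8% after thinning to 1000 UMIs, where Müller glia had 23.3%.

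The ID4 and NFIX UMIs of the amacrine cells of N350 came mostly from different cells. Those cells were divided, after their values had been seen, by the GABA-synthesis genes GAD1 and GAD2 and by the glycine transporter gene SLC6A9, all of them genes of the gate, so the values are a description. In N350, 89 cells with GAD1 or GAD2 and no SLC6A9 had 12.8 (12.1 to 13.6) ID4 UMIs per 10000, and 100 cells with SLC6A9 and no GAD1 or GAD2 had 0.384 (0.234 to 0.592). NFIX had the reverse order, at 0.0235 (0.00285 to 0.0850) and 1.09 (0.828 to 1.42), and the second value overlaps the interval of Müller glia. NFIA was found in both subsets, at 0.977 (0.778 to 1.21) and 1.59 (1.27 to 1.97). The median UMIs per cell were 7782 and 4922. A further 53 cells with neither set of genes had 7.25 ID4 UMIs per 10000 and no NFIX UMI. In N354, all 31 ID4 UMIs of the amacrine cells came from the 21 cells with GAD1 or GAD2 and no SLC6A9, and only 3 cells had SLC6A9 alone.

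**Figure D2:**
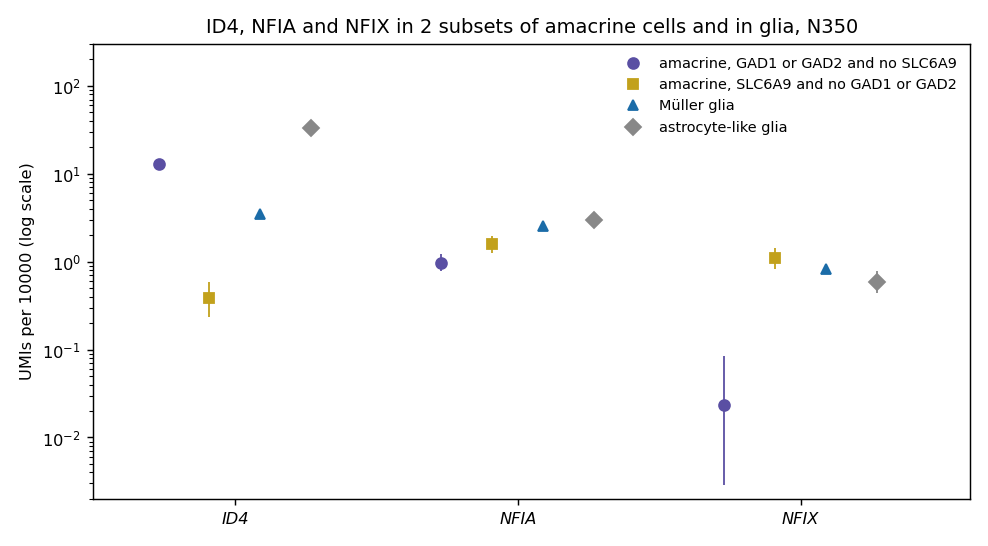
Levels of ID4, NFIA and NFIX in N350, in UMIs per 10000 on a log scale, in amacrine cells with GAD1 or GAD2 only (circles), amacrine cells with SLC6A9 only (squares), Müller glia (triangles) and astrocyte-like glia (diamonds), with 95% counting intervals. ID4 stands at 12.8 in the first subset and 0.384 in the second, NFIX at 0.0235 and 1.09.

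The comparison of the 2 kinds of glia depends on the scale. On UMIs per 10000, the median gene stood lower in Müller glia than in astrocyte-like glia by 0.50 on the log2 scale in N350 (8692 genes) and by 0.61 in N354 (4423 genes). In N350, GLUL stood at 94.6 UMIs per 10000 in Müller glia against 3.53 in astrocyte-like glia, and VIM at 183 against 98.0. The edgeR fit scales by TMM, which more than set aside that shift. The median log2 fold change over all genes was 0.18 in it, against -0.42 with library size alone. The median gene thus leaned slightly toward Müller glia in that fit. With TMM, 1462 genes were called higher in Müller glia and 883 lower, and with library size alone 620 and 2315. Each member is therefore given here against the median gene of its dog as well.

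**Figure D3:**
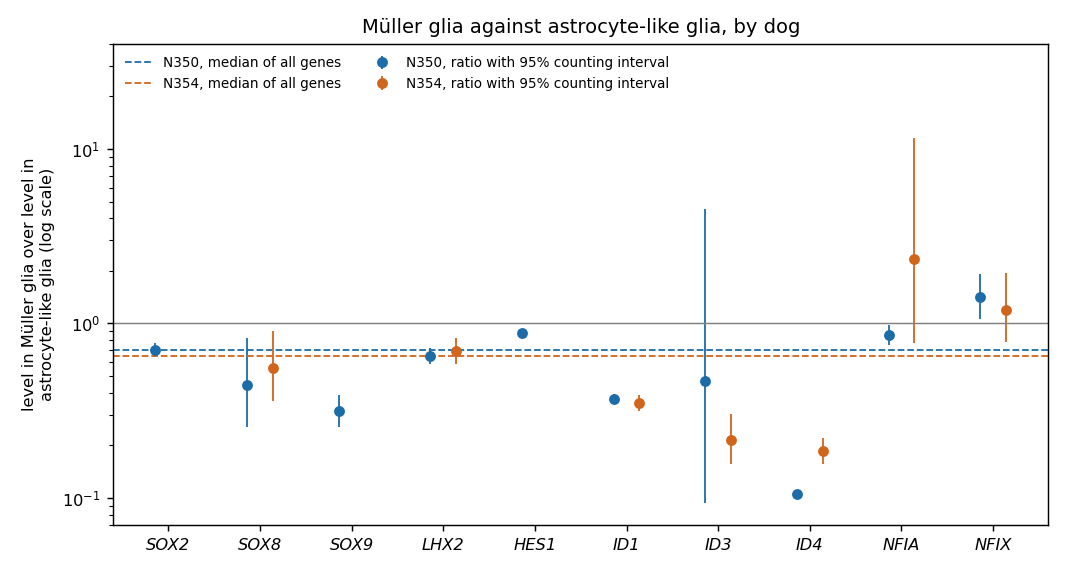
Level in Müller glia divided by the level in astrocyte-like glia on a log scale, by gene and dog, with 95% counting intervals. The grey line marks equal levels, and the dashed lines mark the median gene at 0.708 in N350 (blue) and 0.653 in N354 (orange). ID4 and ID1 lie below both dashed lines in both dogs and NFIX above them, while SOX2 and LHX2 lie on them.

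Of the 7 members tested, 3 were called between the 2 kinds of glia, where 19.6% of all genes were called. ID4 was lower in Müller glia by a log2 fold change of -2.13 ± 0.32 (SE; adjusted p = 3.5e-05). ID3 was lower too, at -1.34 ± 0.44 (adjusted p = 0.036), a value that rests on N354 with its 191 glial UMIs. NFIX was higher, at 1.08 ± 0.35 (adjusted p = 0.036). The background was 7.39% of genes lower and 12.2% higher. ID1 did not pass, with -0.78 ± 0.37 (adjusted p = 0.16), nor did NFIA with 0.62 ± 0.27 (0.13), SOX8 with -0.31 ± 0.40 (0.68) or LHX2 with 0.11 ± 0.22 (0.80). The calls depended on the settings. With library size alone, ID1 was called at -1.47 (adjusted p = 0.013), NFIX was not at 0.43 (0.42), and LHX2 turned to -0.56 (0.10). DESeq2 called ID4 alone (adjusted p = 0.011), and without the block for dog none of the 7 was called, ID4 included (0.67).

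By dog, ID4 was 9.51 times (9.01 to 10.0) higher in astrocyte-like glia of N350 and 5.41 times (4.54 to 6.43) in N354. ID1 was 2.69 times (2.54 to 2.86) and 2.85 times (2.57 to 3.16) higher there. Against the median gene, ID1 was lower in Müller glia by 0.93 on the log2 scale in N350 and by 0.90 in N354. The same difference for NFIX was 0.99 and 0.88 in the other direction. LHX2 lay at -0.12 and 0.09. In N350, SOX9 was 3.19 times (2.56 to 3.95) higher in astrocyte-like glia, which is -1.18 against the median gene. SOX2 was 1.42 times (1.29 to 1.56) higher, at -0.01 against the median gene, and HES1 1.14 times (1.10 to 1.19), at 0.31. Against the median gene, ID4 was at -2.75 in N350 and -1.82 in N354, and ID3 at -1.60 in N354. NFIA was at 0.28 (0.089 to 0.475) in N350 and 1.85 (0.249 to 4.15) in N354. SOX8 was at -0.67 (-1.48 to 0.227) and -0.23 (-0.867 to 0.472), so it was not resolved from the median gene in either dog. For HES1, and for NFIA in N350, the sign of the difference thus changed with the scale. The SOX2 and LHX2 differences from the median gene lay within their counting intervals.

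The single Müller cells differed in ID1 far more than in LHX2. Among 815 Müller glia of N350 with at least 2000 UMIs, 25.9% had no ID1 UMI, where a common level in all cells would leave 3.57%. In the 431 cells of N354 the shares were 33.6% and 5.20%. For LHX2 they were 16.4% and 13.0% in N350 and 10.4% and 10.4% in N354. The 90th percentile of ID1 was 17.5 and 14.7 UMIs per 10000 at medians of 3.23 and 2.20. ID4 was at 0 in 30.6% of cells against 11.1% for a common level in N350, and in 49.9% against 42.8% in N354. HES1 was at 0 in 5.77% of cells of N350 against 0.0106%, and SOX2 in 17.9% against 8.29%. NFIX was at 53.9% against 52.1% and 53.8% against 52.2%, but with so few UMIs per cell this share says little about its spread.

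The spread beyond counting error was also larger for ID1 than for LHX2. Its coefficient of variation for ID1 was 1.29 in N350 and 1.55 in N354, at the 96.9th and 98.5th percentile of genes with at least 200 UMIs in Müller glia. For ID4 it was 1.38 and 0.904, at the 97.4th and 95.5th percentile, and for SOX9 1.25, at the 96.7th. LHX2 had 0.273 and 0.302, at the 37.5th and 50.8th, where the median gene had 0.343 and 0.298. NFIX had 0.389 and 0.288, at the 57.7th and 47.8th. In the astrocyte-like glia of N350, ID1 had 0.835 and ID4 0.577.

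**Figure D4:**
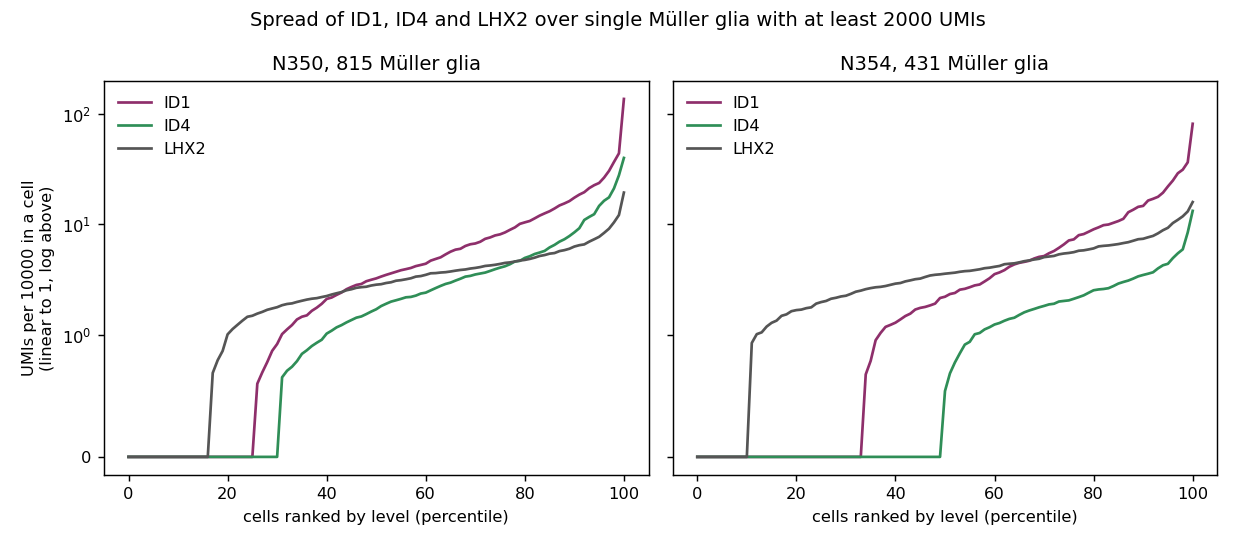
Levels of ID1, ID4 and LHX2 in single Müller glia with at least 2000 UMIs, with cells ranked from lowest to highest along the x axis and UMIs per 10000 on the y axis (linear up to 1, log above). LHX2 rises in a shallow curve after 16.4% of cells of N350 and 10.4% of N354 at 0, whereas ID1 starts later, after 25.9% and 33.6%, and climbs to 138 and 82.1.

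The Müller glia with the highest ID1 levels (163 cells of N350 and 87 of N354, the top 20%) were set beside those with the lowest (326 and 173, the bottom 40%), a split chosen after the values were seen. ID1 itself, which defined the split, was at 20.7 and 0.554 in N350 and at 19.3 and 0.223 in N354. In N350, HES1 was 1.37 times (1.32 to 1.42) higher in the ID1-high cells, SOX9 1.45 times (1.08 to 1.95), ID4 1.34 times (1.20 to 1.49) and SOX2 1.20 times (1.09 to 1.32), where the median gene was at 1.03. For LHX2, NFIA and NFIX the intervals included 1. In N354, ID3 was 3.09 times (1.92 to 5.04) higher in the ID1-high cells, and ID4 was at 1.03 (0.766 to 1.37), so the ID4 difference of N350 was not seen there. The Müller markers RLBP1 and GLUL were at 1.03 and 1.06 in N350 and at 1.02 and 1.03 in N354. The immediate early genes FOS and ATF3 were 1.19 and 1.42 times higher in N350 and 1.35 and 1.59 times in N354, and their part in the ID1 difference was not tested. The mitochondrial share of the ID1-high and ID1-low cells was not compared, and its part was not tested either.

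Mitochondrial RNA moved with several members in N350. There, 159 Müller glia with over 10% mitochondrial UMIs had 0.378 times the HES1 level (0.341 to 0.418) of the other 895, on UMIs without the mitochondrial genes, where the median gene was at 1.05. ID1 was at 0.423 times (0.343 to 0.515), NFIA at 0.477, SOX9 at 0.492, ID4 at 0.532, SOX2 at 0.710 and LHX2 at 0.806. NFIX was at 0.899 with an interval that included 1. In N354, with 290 and 272 cells, ID1 was at 0.707 (0.642 to 0.778), and the intervals of the other 6 members included 1. The median mitochondrial share was 6.53% in Müller glia and 3.55% in astrocyte-like glia of N350, and 10.1% and 5.62% in N354. With cells of at most 10% only, ID4 and NFIX were still called between the glia, and ID3 was not (adjusted p = 0.087).

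The genes whose pattern over the 6 classes was most like that of a member were found among 7945 genes, by the mean over dogs of Pearson's r on log2 levels. For ID1 they were GDPD2 (mean r = 0.997) and LGALS3 (0.995), and for ID4 ROBO1 (0.992) and CPNE8 (0.989). LHX2 was most like GSTP1 (0.992) and TIMP3 (0.988), and SOX8 most like SPARC (0.991) and ECRG4 (0.989). NFIA was most like CDK2AP1 (0.976) and KLF11 (0.972), and NFIX most like SLC1A4 (0.971) and MOB3B (0.966). The 6 points of a dog share a library, and the values are a description.

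Related genes were read from lists by count. Of 7 other SOX genes tested, 1 was called between the glia, where 19.6% of all genes were called. This was SOX3, with 18 UMIs in the astrocyte-like glia of N350 and none in its Müller glia, nor in any glia of N354. NFIB and NFIC, the other NFI genes, were higher than in neurons in both kinds of glia, beside 30.4% and 23.5% of all genes. They were not called between the glia. Of the 3 E proteins tested, which the ID proteins bind, TCF4 was higher in Müller glia (log2 fold change 1.16 ± 0.29, adjusted p = 0.0067) and TCF3 and TCF12 did not pass.

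Of 11 Notch pathway genes tested, 2 were called higher and 1 lower in Müller glia, beside 12.2% and 7.39% of all genes, with a list median of 0.72 against 0.18 over all genes. DLL4, a Notch ligand, was lower (-3.79 ± 0.48, adjusted p = 5.2e-06), at 0.282 and 0.0147 UMIs per 10000 in Müller glia and 3.99 and 1.84 in astrocyte-like glia. NRARP, a Notch target and inhibitor, and HES4, a relative of HES1, were higher (2.73 ± 0.39 and 2.73 ± 0.42). Both calls rest on N350, since N354 had 4 and 14 UMIs of them in Müller glia. NOTCH1 and NOTCH2, receptors upstream of HES1, did not pass between the glia and were higher than in neurons in both. Against neurons, 8 of the 11 were called higher and 2 lower in Müller glia, and 7 higher and 2 lower in astrocyte-like glia. The shares of all genes called higher there were 30.4% and 23.5%.

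Of 13 BMP pathway genes, 2 were called higher and 1 lower in Müller glia, beside the same 12.2% and 7.39%, with a list median of 0.36. The ligand genes went opposite ways. BMP2 stood at 0.0798 and 0.106 in Müller glia and 0.647 and 0.866 in astrocyte-like glia (-2.34 ± 0.41, adjusted p = 2.6e-04). BMP7 stood at 0.162 and 0.541 against 0.0353 and 0.104 (2.95 ± 0.51, adjusted p = 2.6e-04). SMAD5, which carries the BMP signal to the nucleus, was higher in Müller glia (2.05 ± 0.32), and the other 10 genes did not pass.

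Retinal homeobox and paired genes were called between the glia in both directions. RAX, an early eye field gene, was higher in Müller glia (1.83 ± 0.26). SIX6 (-1.06 ± 0.34) and MEIS2 (-1.61 ± 0.42) were lower in Müller glia. PAX2, known from astrocytes of the optic nerve and retina, had 9 and 3 UMIs in astrocyte-like glia and none in 1054 and 562 Müller glia, with upper limits of the 95% interval of 0.00508 and 0.0109 UMIs per 10000 there.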

How the data were processed

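Droplet single-cell libraries (10x 3' v3.1) from the neuroretina of 2 normal dogs were analysed. The authors counted reads with Cell Ranger (version 6.0.2 in the file headers). The study names canFam6 as the genome. What the authors deposited is a table of whole UMI counts for each gene in each cell, with no normalization. The dogs were counted on different annotations. N350 had 34981 gene rows, and N354 had 19947 rows, of which 4169 carried an identifier in place of a name and 17 names that occurred more than once were summed.

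Cells with at least 200 genes were gated by raw UMIs of markers. The thresholds were set after marker UMIs had been seen. Cells that passed more than 1 gate, 341 in N350 and 85 in N354, were left out as possible doublets, and 1212 and 292 cells passed none. No mitochondrial limit was set. Levels are a class's summed UMIs per 10000, with exact Poisson 95% intervals. Shares of cells carry counting error only, and thinning to 1000 UMIs per cell was an alternative. Intervals cover counting error only, not the spread between dogs.

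Sums per class and dog, for 6 classes with at least 20 cells in each dog, were tested with edgeR 4.0.16 (R 4.3.3; quasi-likelihood, TMM, dog as a block, genes with at least 10 UMIs), with Benjamini-Hochberg adjustment over 11943 genes and a threshold of 0.05. On simulated data for Müller against astrocyte-like glia with a log2 change of 2 in 200 of 11844 genes, 189 were recovered with 6 false calls. In that simulation all classes of a dog shared 1 profile, all genes had 1 spread, and the changed genes had at least 200 UMIs. It therefore does not cover the shift in scale between the glia, scarce genes or changes under 2. The dogs pair the sums because each dog gave every class. Alternatives were DESeq2 1.42.0, no block, library size only, no low-count filter, limits on mitochondrial UMIs, a stricter gate, removal of the 4% of cells with the highest Scrublet score (scanpy 1.11.5) and each dog alone. The text names the 10 members, the 2 genes most like each member with at least 50 UMIs per dog, with log2(UMIs per 10000 + 0.05), and members of the wider lists called between the glia. Some list genes not called between the glia are named too: NFIB, NFIC, TCF3, TCF12, NOTCH1 and NOTCH2. The members, lists and tests were chosen with earlier results of these data known. A gene of the retinal homeobox list is not reported here, and so neither are the counts of that list.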

Additional observations from a re-analysis of the deposited data

How the results depend on the processing

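Of 254 values recomputed under another setting, 214 were classed as unchanged. They kept their direction and their side of the threshold, or moved by less than the spread between dogs or the counting interval. For values of 1 dog alone, that spread came from the same 2 dogs, so the limit widened as the dogs differed. ID4 at -1.68 and -2.68, and LHX2 at -0.05 where the main fit gave 0.11, were classed as unchanged. NFIX at 0.99, where the main fit gave 1.08, was not. The 214 include such values and are no measure of how alike the dogs were. Counts of genes or pairs were classed so within a set fold, for example 2935 genes called with library size only in place of 2345. The cause of the changes given here was not tested. Between Müller and astrocyte-like glia, the fit without a replicate block (dogs not paired) ended the calls of ID3 at -1.41, ID4 at -2.48 and NFIX at 1.04, and gave 168 genes called in place of 2345. Without that block, ID3 at 5.02 and NFIA at 4.09 lost their calls for Müller glia against neurons, as did NFIA at 3.67 for astrocyte-like glia against neurons, and the genes called there fell to 2013 and 2062 from 5908 and 4984. The block changed no other call of a member. With library size only, ID1 was called at -1.47, NFIX was not at 0.43, and LHX2 turned to -0.56. DESeq2 lost ID3 at -1.48 and NFIX at 0.86, turned LHX2 to -0.089 and called 1481 genes. At under 5% of UMIs on MT- names, ID3 at -1.20 and NFIX at 0.56 were not called, LHX2 was at -0.45, and 1411 genes were called. That limit acted on N354 alone, where it left 26 Müller glia. At most 10% mitochondrial UMIs lost ID3 at -1.16, and removal by Scrublet score lost NFIX at 1.01. As a mean over cells, the HES1 log2 ratio of Müller over astrocyte-like glia was -0.30 in place of -0.19.

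Each dog alone gave values with no test, on the TMM scale with 0.5 counts added. Between the glia they ranged from -0.86 to -0.75 for ID1, -1.46 to -0.76 for ID3, 0.35 to 1.78 for NFIA and 0.99 to 1.05 for NFIX. The range was -2.68 to -1.68 for ID4 and -0.63 to -0.11 for SOX8. LHX2 differed in sign, at -0.05 in N350 and 0.23 in N354. For Müller glia against neurons the ranges were 4.58 to 5.53 for SOX8, 4.85 to 7.69 for ID1, 2.03 to 3.88 for ID3, 4.12 to 4.21 for NFIA and 4.36 to 5.37 for NFIX. Those of LHX2 and ID4 were 5.58 to 6.28 and 3.37 to 5.24. For astrocyte-like glia against neurons they were 5.20 to 5.64 for SOX8, 5.71 to 8.45 for ID1, 2.79 to 5.34 for ID3, 6.05 to 6.92 for ID4, 2.43 to 3.77 for NFIA and 3.31 to 4.38 for NFIX. No count of genes called could be had from 1 dog. Of 17 pairs of member and dog, Müller glia stood above every neuron class in 14 and astrocyte-like glia in 16. The numbers were 15 and 16 at most 10% mitochondrial UMIs, and 15 and 17 with the stricter gate, which left too few amacrine cells in N354. By share of cells with a UMI they were 17 and 17, and 14 and 17 after thinning. Depth limits ID3 in N350, NFIA in N354, SOX8 in both dogs and all amacrine values of N354, which had 26 such cells.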
